A study of Mus musculus with 2 samples.

Results

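Kallikreins and trypsin-like serine proteases are enzymes that cut other proteins after particular residues, and 87 of the 23411 genes listed with read counts in both deposited tables belong to this group. The group was made by gene symbol: every Klk, Prss or Tmprss gene with a number, except Prss16, together with St14, Hpn, Corin, Gzma, Gzmb, Mcpt1, Mcpt4 and Cma1. The rule uses symbols and no expression value, but it was drawn up with earlier results of these data known. Poly-A RNA was sequenced from medullary thymic epithelial cells (mTEC), the epithelial cells of the inner zone of the thymus, of B6 mice. MHC-II high mTEC were set against MHC-II low mTEC, both sorted by their surface level of MHC class II from 1 pool of 3 mice, with 1 library per fraction. No mutation or treatment is given for either fraction, and the age of the mice is not given in the sources used here. With 1 library per fraction no replicate check or p-value can be had, so each ratio compares these 2 libraries and not the cell states in general.

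Serine proteases of this family are made as inactive precursors and start to work once another protease clips off a short leading peptide, so that members often switch each other on in cascades. Tissue kallikreins release kinins from kininogen and process growth factors, and the mouse has a large set of near copies, the Klk1b genes, best known from the salivary glands. Kallikrein-related peptidases shed the outer skin layer and mature tooth enamel, trypsins digest food, membrane-spanning members act at epithelial surfaces, and granzymes and mast cell proteases are stored in the granules of blood-derived cells. Mature mTEC transcribe a wide range of genes that are otherwise restricted to single tissues, a process by which developing T cells meet self antigens and in which Aire takes part.

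Active-site coding sequences of a few members are shown because the group takes in enzymes with and without the codon that is the textbook mark of cleavage after arginine or lysine. Each stretch is the 30 coding bases that begin 6 codons before the catalytic serine codon. The first capitals mark the codon of the residue at the bottom of the specificity pocket, where aspartate is that mark, and the second capitals mark the serine codon. Sequences were read from the GENCODE vM21 transcripts (GRCm38), coordinates are the outer span of the stretch, and an intron lies inside the span after the 12th base.
Klk4 (chr7:43884405-43885251, plus strand): GACtcctgcaatggggacTCTgggggtccc
Klk1b22 (chr7:44116334-44116738, plus strand): GACacttgtaagggagacTCAggaggccca
Klk1b26 (chr7:44016384-44016782, plus strand): GACacttgtgcgggtgacTCCggaggccca
Klk1b8 (chr7:43954359-43954757, plus strand): AACatttgcaagggtgacTCCggaggccca
Klk1b16 (chr7:44141021-44141423, plus strand): GGCccttgtgtgggtgacTCAggaggccca
Klk7 (chr7:43813355-43815314, plus strand): AACacgtgcaatggtgacTCAggggggccc
Prss29 (chr17:25322247-25322360, plus strand): GATtcctgctatggtgacTCAggtggccct
Tmprss15 (chr16:78953938-78957321, minus strand): GATtcttgtcagggtgatTCTggagggcca
St14 (chr9:31090010-31090413, minus strand): GACtcctgccagggtgacTCTggtggcccc
Gzma (chr13:113094033-113095762, minus strand): GACtcctgcaatggggatTCTggcagccct
Gzmb (chr14:56259545-56260193, minus strand): GCTtcctttcggggggatTCTggaggcccg
Mcpt1 (chr14:56019592-56020013, plus strand): ACAgcatacatgggagacTCTgggggacct

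Of the 87 members, 75 carried codons for the glycine, aspartate, serine, glycine motif around the catalytic serine in the transcript examined. An aspartate codon (GAC or GAT) stood at the pocket position in 59 of these 75, and another codon stood there in 16. All 20 membrane-spanning members and all 3 secreted trypsins had the aspartate codon. Among the granule members 1 of 5, Gzma, had it. The motif was not found in Klk10, Klk1b4, Prss23, Prss34, Prss35, Prss37, Prss45, Prss46, Prss50, Prss54, Prss57 and Prss58. Some of these are known as proteins without protease activity, such as Klk1b4, the alpha subunit of the salivary nerve growth factor complex.

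The reads of 1 transcript per gene came to 138368535 in the MHC-II high and 56077479 in the MHC-II low library, and read counts were set against totals scaled with TMM, as CPM (reads relative to the scaled library total). The sort labels were checked against marker lists. All 7 of 7 markers of mature mTEC were higher in MHC-II high mTEC, with a summed level of 1686 CPM in the MHC-II high and 337 CPM in the MHC-II low library, and Aire had 571 CPM in MHC-II high and 21.04 CPM in MHC-II low mTEC. Immature and basal mTEC markers summed to 1671 CPM in MHC-II high and 15270 CPM in MHC-II low mTEC, with 4 of 5 lower. Other cells also differed: the 6 endothelial markers summed to 62.1 CPM in the MHC-II high and 434 CPM in the MHC-II low library, the 7 fibroblast and mural markers to 408 CPM in MHC-II high and 1135 CPM in MHC-II low mTEC, and the 4 erythroid markers to 60.3 CPM in MHC-II high and 2141 CPM in MHC-II low mTEC. Markers of tuft-like cells summed to 420 CPM in MHC-II high and 1512 CPM in MHC-II low mTEC, and the 5 listed neutrophil markers to 177 CPM in MHC-II high and 25.8 CPM in MHC-II low mTEC. No marker of these lists was at 0 reads in either library, and the part of these cells in the members' ratios was not tested. In bulk RNA, fewer cells of a type and less RNA per cell cannot be told apart.

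Every one of the 87 members had at least 3 reads in both libraries, with 6 to 31985 reads in the MHC-II high and 8 to 11284 reads in the MHC-II low library. A member was called higher or lower when the whole exact 95% Clopper-Pearson interval of its read ratio, which covers counting error only, lay beyond 2-fold. Of the 66 members with a mean of at least 1 CPM, 32 were higher in MHC-II high mTEC, 4 were lower and 30 were neither. Over the 17438 genes past the same minimum, 14.5% were higher and 10.9% were lower, and 57.0% of all called genes were higher (72.9% with unscaled read sums, where 38 members were higher and 2 lower). The median log2 ratio was 1.24 over these 66 members and -0.01 over all 17438 genes. This minimum was passed by 10 members through the MHC-II high library alone, 8 of them called higher, and by 2 through the MHC-II low library alone. Among the 54 members at 1 CPM or more in both libraries, 24 were higher and 3 were lower.

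Without any minimum, 33 of the 87 members were higher and 10 were lower, against 12.4% and 16.7% of 22947 genes with reads, and the median log2 ratio was 0.40 over the members and -0.11 over those genes. Reads of all members together came to 214335 in the MHC-II high and 44481 in the MHC-II low library, or 1402 CPM in MHC-II high and 876 CPM in MHC-II low mTEC, a ratio of 1.60 (95% interval 1.58 to 1.62). St14 held the most reads of any member in both libraries, and the ratio of the sum without it was 1.82. The members' share of all gene reads was 0.155% in the MHC-II high and 0.0793% in the MHC-II low library.

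**Figure D1:**
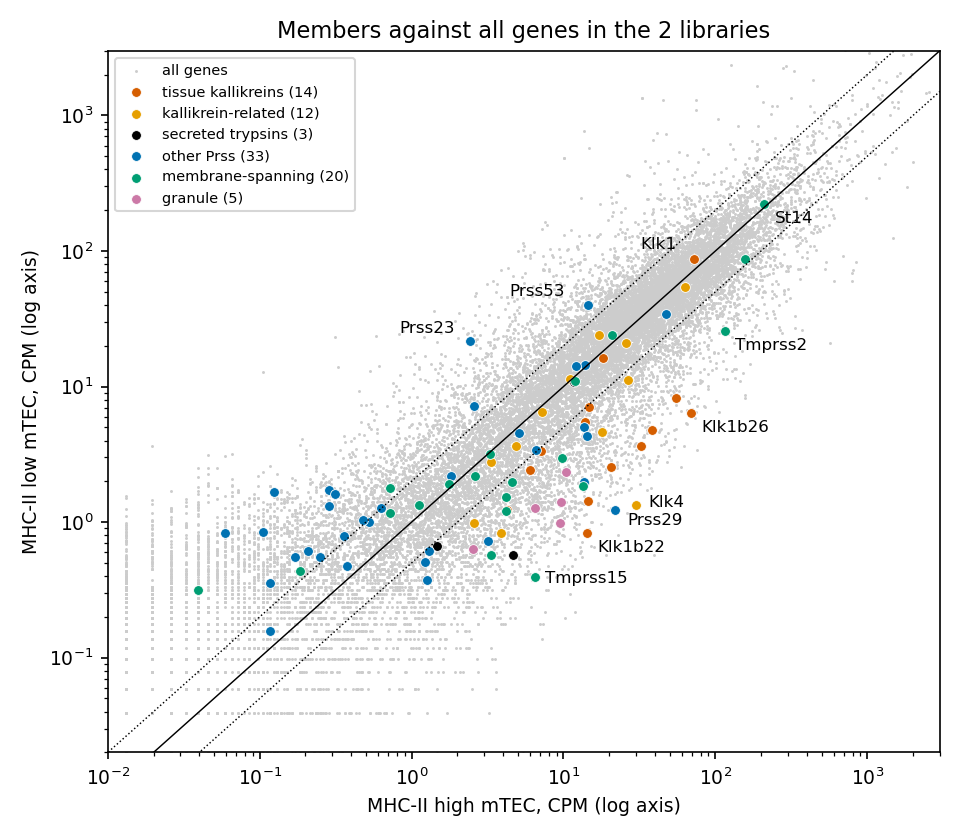
CPM of each gene in the MHC-II high library (x axis, log scale) and the MHC-II low library (y axis, log scale), with the 87 members coloured by role and all other genes in grey. The solid line marks equal values and the dotted lines 2-fold differences. Most tissue kallikreins and all 5 granule members lie to the right of the equal line, and St14 lies close to it.

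**Figure D2:**
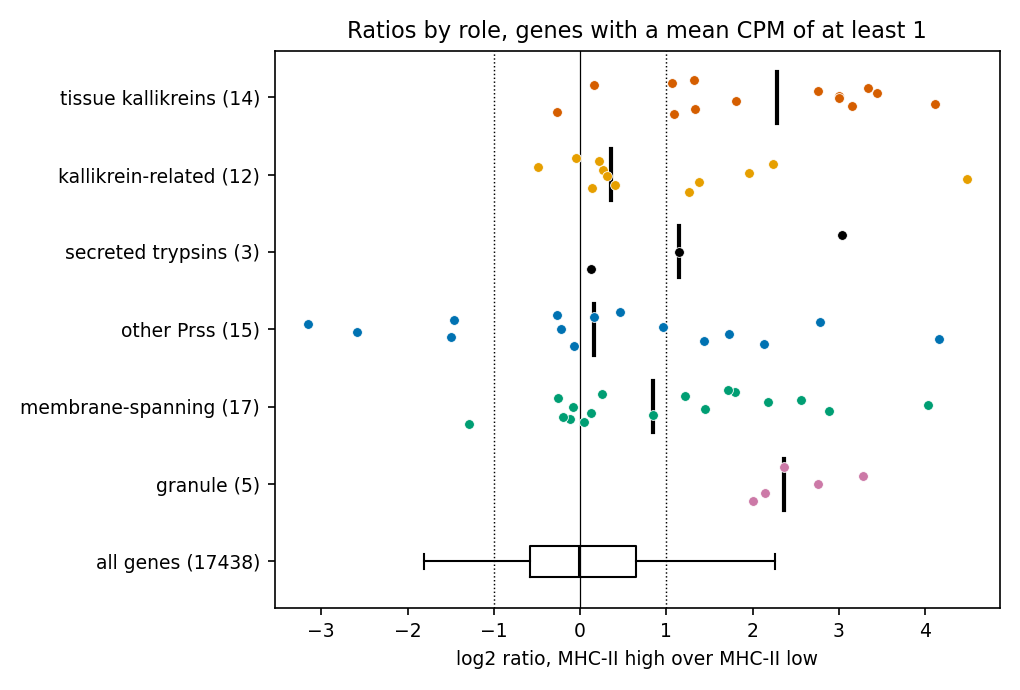
Log2 ratio of MHC-II high over MHC-II low mTEC for each member with a mean of at least 1 CPM, by role, with black bars at the medians. The box shows the quartiles of all 17438 genes with whiskers at the 5th and 95th percentiles, and dotted lines mark 2-fold. Medians of the genes plotted run from 0.17 for the other Prss genes to 2.36 for the granule members, while over all 33 other Prss genes without a minimum the median is -0.94.

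Levels of different genes were compared per length, as CPM per kb of transcript. Klk1, the kinin-releasing tissue kallikrein, had the highest level of any member in both libraries, 82.9 in MHC-II high and 99.6 in MHC-II low mTEC. After Klk1 the order in MHC-II high mTEC ran Klk1b26 at 79.1, Tmprss4 at 68.9, St14 at 52.1, Klk1b11 at 44.7, Klk1b16 at 39.9, Klk1b9 at 37.3, Tmprss2 at 36.5, Klk7 at 36.1 and Prss8 at 25.4 CPM per kb. In MHC-II low mTEC it ran St14 at 55.3, Tmprss4 at 38.3, Klk7 at 31.1, Klk13 at 23.3, Klk1b5 at 18.8, Prss8 at 18.5, Prss53 at 15.9, Klk6 at 15.4 and Prss2 at 13.0. Klk1, Tmprss4, St14, Klk7 and Prss8 were the 5 genes present in both top 10 lists. The Klk1b genes of the MHC-II high list were outside the MHC-II low list, in which Klk1b5 was the only Klk1b gene.

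The summed level per length of all members was 941 in MHC-II high and 513 in MHC-II low mTEC. The 5 highest members held 34.8% of that sum in MHC-II high and 48.2% in MHC-II low mTEC. The 14 tissue kallikreins held 44.3% of it in MHC-II high and 33.0% in MHC-II low mTEC. The 13 Klk1b genes without Klk1 held 35.5% in MHC-II high and 13.7% in MHC-II low mTEC.

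**Figure D3:**
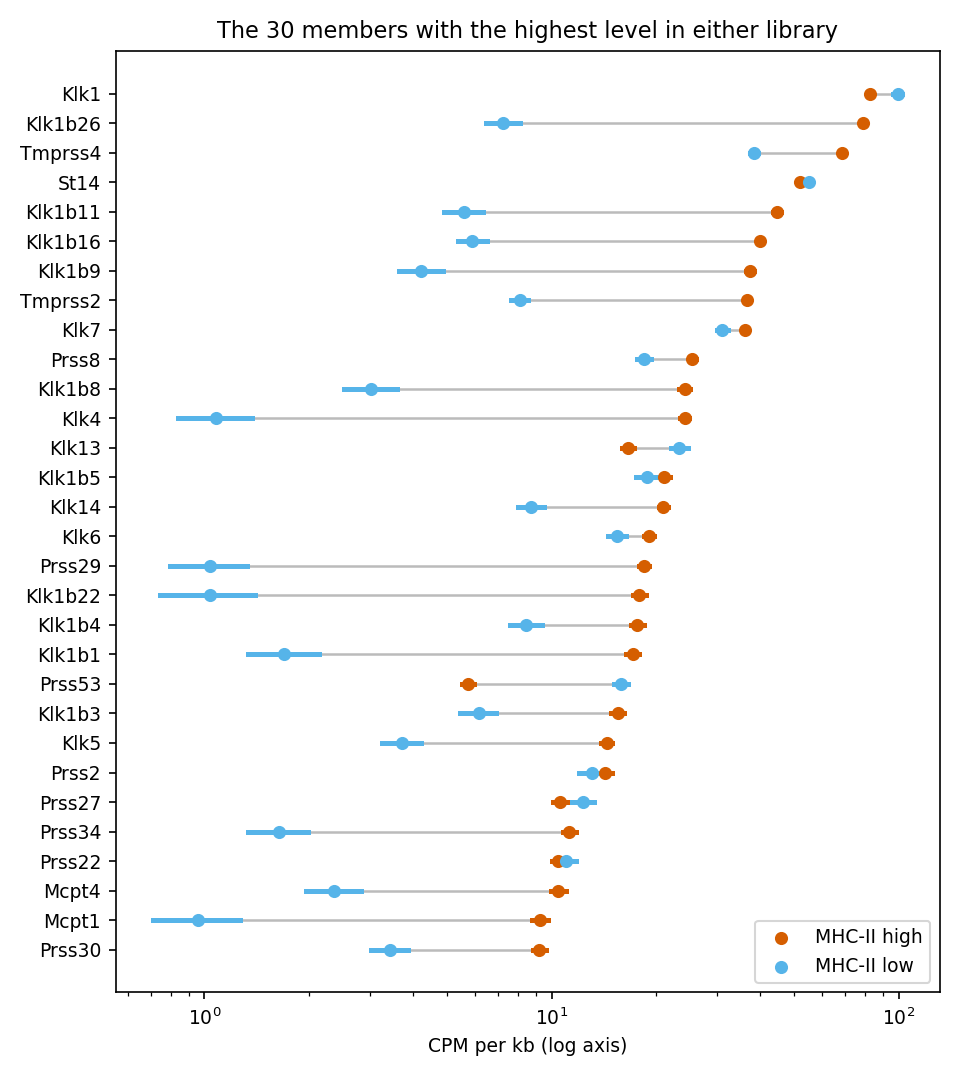
CPM per kb (log axis) of the 30 members with the highest level in either library, in MHC-II high mTEC (orange) and MHC-II low mTEC (blue), with exact 95% intervals of counting error as thick bars. Klk1 is at 82.9 in MHC-II high and 99.6 in MHC-II low mTEC, and Klk1b26, next to it in the order, is at 79.1 in MHC-II high and 7.26 in MHC-II low mTEC.

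The 14 tissue kallikreins had a median log2 ratio of 2.28. In MHC-II high mTEC 10 of 14 were higher and none was lower, beside 14.5% and 10.9% of all genes. All 10 were Klk1b genes, and the 13 Klk1b genes together had 47180 reads in the MHC-II high and 3229 reads in the MHC-II low library, a ratio of 4.85 (4.68 to 5.03). Klk1b26, Klk1b9 and Klk1b22 are known as epidermal growth factor binding proteins. Klk1b22 had 2187 reads (14.3 CPM) in MHC-II high and 42 reads (0.827 CPM) in MHC-II low mTEC, a ratio of 17.3 (12.8 to 24.1). Klk1b26 had 10558 reads (69.1 CPM) in MHC-II high and 322 reads (6.34 CPM) in MHC-II low mTEC, a ratio of 10.9 (9.75 to 12.2), but a further listed accession without a symbol had the same 2 read counts, so this value is uncertain. Klk1b9 had 4962 reads (32.5 CPM) in MHC-II high and 186 reads (3.66 CPM) in MHC-II low mTEC, a ratio of 8.86. The smallest of these 3 ratios was still over 8, and Klk1b22 was among the members that passed the minimum through the MHC-II high library alone.

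Klk1b1 had 14.5 CPM in MHC-II high and 1.44 CPM in MHC-II low mTEC, a ratio of 10.1. Klk1b11 had 38.5 CPM in MHC-II high and 4.81 CPM in MHC-II low mTEC and Klk1b8 had 20.5 CPM in MHC-II high and 2.56 CPM in MHC-II low mTEC, with a ratio of 8.01 each. Klk1b16, the gamma-renin gene, had 55.1 CPM in MHC-II high and 8.17 CPM in MHC-II low mTEC, a ratio of 6.74. These genes share a high ratio but not the pocket codon, which is aspartate in Klk1b1 and Klk1b11 and another codon in Klk1b8 and Klk1b16. Klk1b24 had 4.27 CPM in MHC-II high and 1.22 CPM in MHC-II low mTEC, a ratio of 3.50. Klk1b3, the gamma subunit of the nerve growth factor complex that matures its partner, had 13.8 CPM in MHC-II high and 5.48 CPM in MHC-II low mTEC, a ratio of 2.52. Klk1b21 had 6.05 CPM in MHC-II high and 2.42 CPM in MHC-II low mTEC, a ratio of 2.50 (2.07 to 3.04), just past the threshold.

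The other 4 tissue kallikreins were not called. Klk1b27 had 7.15 CPM in MHC-II high and 3.37 CPM in MHC-II low mTEC, a ratio of 2.12 (1.81 to 2.51). Klk1b4 had 14.8 CPM in MHC-II high and 7.09 CPM in MHC-II low mTEC, a ratio of 2.09 (1.87 to 2.34), so for both genes the interval reached under 2. Klk1b5 had 18.2 CPM in MHC-II high and 16.2 CPM in MHC-II low mTEC, a ratio of 1.12 (1.04 to 1.21). Klk1 had 11098 reads (72.6 CPM) in MHC-II high and 4428 reads (87.2 CPM) in MHC-II low mTEC, a ratio of 0.833 (0.804 to 0.862) that turned above 1 with unscaled read sums. Klk1 and Klk1b5, which had the lowest ratios of the 14, had the most similar coding sequences of all 91 pairs of tissue kallikreins, 95.2% identical. Identity over the 91 pairs had a median of 86.0% and a minimum of 79.6%.

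All 26 kallikrein genes lie side by side on chromosome 7, and called genes were described over runs of neighbours. The borders of the runs were drawn after the ratios were seen, and ratios differ within a run. The run of 6 genes from Klk11 to Klk6 held none that was higher, with ratios from 0.968 to 1.32. The next 14 genes, from Klk5 to Klk1b3, held 13 that were higher, with ratios from 2.12 to 22.3 and a median of 7.37, and Klk1b27 was the exception. Within it Klk1b21, at 2.50, stood beside Klk1b22, at 17.3. The last 3 genes, Klk1b4, Klk1b5 and Klk1, held none, with ratios from 0.833 to 2.09, the highest of which, that of Klk1b4, was close to that of Klk1b27 inside the longer run. At the other end of the cluster, 1 of the 3 genes Klk14, Klk13 and Klk12 was higher. The run from Klk5 to Klk1b3 crosses the border between the kallikrein-related and the tissue kallikrein genes, which lies between Klk15 and Klk1b8. Which genes were called depended on the scaling. With unscaled read sums Klk12, Klk1b27 and Klk1b4 were also higher. With the library totals that underlie the RPKM columns, Klk11, Klk9, Klk7, Klk6 and Klk1b5 were higher as well, beside 45.2% of all genes.

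**Figure D4:**
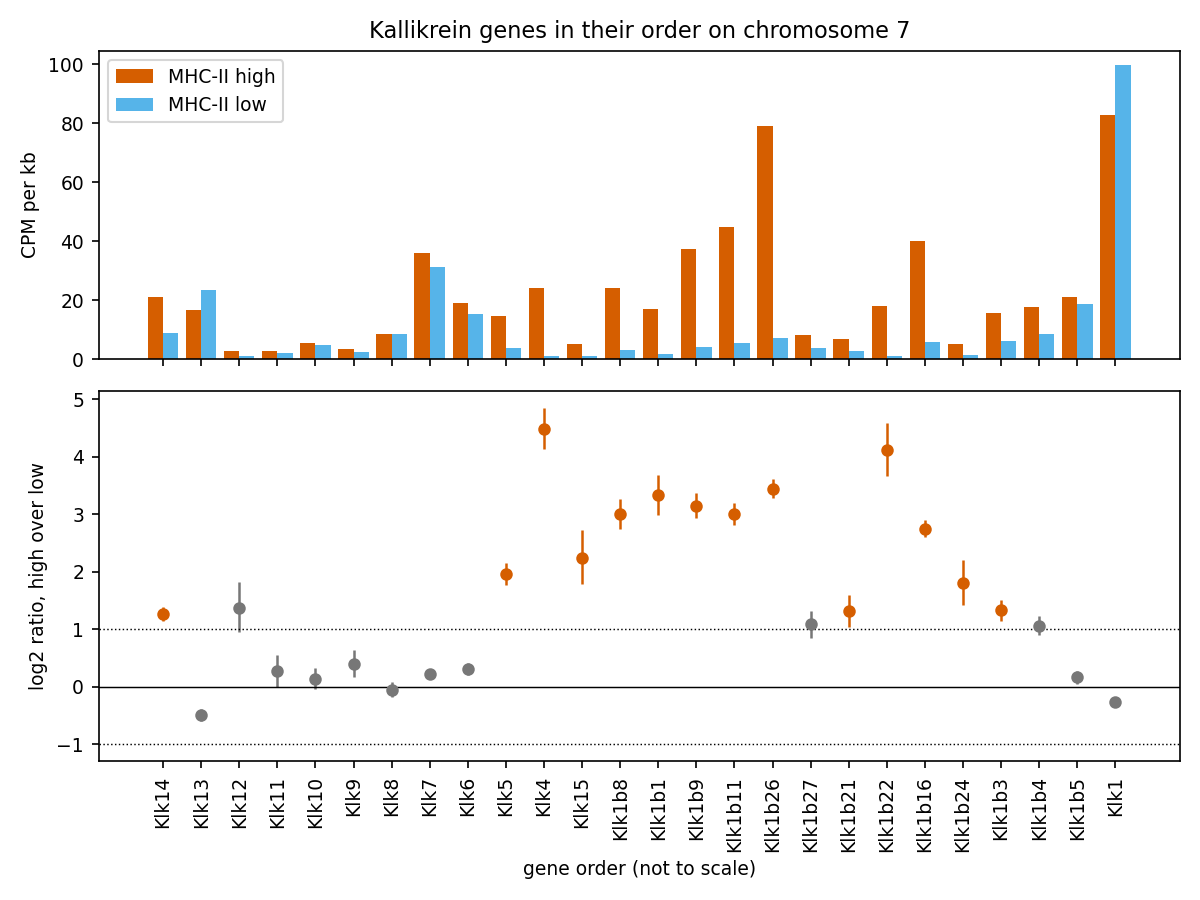
The 26 kallikrein genes in their order along chromosome 7, not to scale: CPM per kb in MHC-II high (orange) and MHC-II low (blue) mTEC (upper panel) and the log2 ratio with its exact 95% interval of counting error (lower panel, called genes in orange, dotted lines at 2-fold). With the TMM totals used here, 13 of 14 genes from Klk5 to Klk1b3 are higher in MHC-II high mTEC, while from Klk11 to Klk6 none is.

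Sequences just upstream of 3 Klk1b genes are shown because the genes are near copies with unlike ratios: 17.3 for Klk1b22, 10.9 for Klk1b26 and 1.12 for Klk1b5. Each is the 100 bases before the RefSeq gene start (GRCm38.p6, plus strand), with the letters TTTAAA, a motif that reads the same on both strands, in capitals.
Klk1b22 (chr7:44112573-44112672): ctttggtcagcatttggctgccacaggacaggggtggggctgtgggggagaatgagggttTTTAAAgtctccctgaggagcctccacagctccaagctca
Klk1b26 (chr7:44012578-44012677): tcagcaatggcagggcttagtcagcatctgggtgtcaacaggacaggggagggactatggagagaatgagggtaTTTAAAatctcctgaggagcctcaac
Klk1b5 (chr7:44216374-44216473): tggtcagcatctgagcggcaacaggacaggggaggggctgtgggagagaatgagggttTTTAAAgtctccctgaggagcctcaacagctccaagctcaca

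The promoter windows of 300 bases (250 before to 50 after the start) of Klk1b22 and Klk1b5 were 83.5% identical, those of Klk1b22 and Klk1b26 75.4%, and those of Klk1b26 and Klk1b5 77.4%. Among these genes, the window of the called Klk1b22 was nearer to that of the uncalled Klk1b5 than to that of the called Klk1b26. Over all 14 tissue kallikrein windows, the nearest to Klk1b22 was that of the called Klk1b9, at 84.4%. The nearest to Klk1b5 was that of the uncalled Klk1b4, at 88.6%. Whether promoter sequence goes with the ratios was not tested. TTTAAA was found in the windows of all 13 Klk1b genes and not in that of Klk1. It was found in 13.2% of all 32851 promoters and in 19 (26.4%) of the 72 member promoters in the RefSeq table. Of those 19, 13 were the Klk1b near copies, which are alike in sequence. The letters TATAAA, searched on both strands, were in 0 of the 14 tissue kallikrein windows, in 8 of 72 member windows and in 13.6% of all promoters. A match describes these letters only.

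Kallikrein-related peptidases were more mixed: 4 of 12 were higher in MHC-II high mTEC and none was lower, beside 14.5% and 10.9% of all genes. The median log2 ratio of the 12 was 0.36. Klk4, which degrades the enamel matrix of the maturing tooth, had the largest ratio of all members. It had 4574 reads (29.9 CPM) in MHC-II high and 68 reads (1.34 CPM) in MHC-II low mTEC, a ratio of 22.3 (17.6 to 28.8). Klk5 and Klk14, proteases of skin shedding, had 17.9 and 26.7 CPM in MHC-II high mTEC, against 4.59 and 11.1 CPM in MHC-II low mTEC. Their ratios were 3.89 (3.40 to 4.47) for Klk5 and 2.404 (2.20 to 2.63) for Klk14. Klk15 had 597 reads (3.91 CPM) in MHC-II high and 42 reads (0.827 CPM) in MHC-II low mTEC, a ratio of 4.72, but 29.4% of its 100-base windows also lie in an antisense gene. Klk15 passed the minimum through the MHC-II high library alone.

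Klk7, the chymotrypsin-like partner of Klk5 in skin shedding, had 63.0 CPM in MHC-II high and 54.2 CPM in MHC-II low mTEC, a ratio of 1.16 (1.11 to 1.21). Klk6, known from myelin-forming cells of the nervous system, had 25.9 CPM in MHC-II high and 20.9 CPM in MHC-II low mTEC, a ratio of 1.24. Both were thus within 2-fold, unlike Klk5, which lies beside Klk6 on the chromosome. Klk13 had 17.1 CPM in MHC-II high and 24.1 CPM in MHC-II low mTEC, a ratio of 0.712 (0.665 to 0.762), below 1 except with the library totals that underlie the RPKM columns. Klk12 had 2.56 CPM in MHC-II high and 0.985 CPM in MHC-II low mTEC, a ratio of 2.60 whose interval of 1.93 to 3.56 reached under 2. Klk8 (neuropsin), Klk9, Klk10 and Klk11 had ratios between 0.968 and 1.32, and the ratio of Klk8 turned above 1 under 3 of the other scalings.

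Among the secreted trypsins of the pancreas, Prss1 had 714 reads (4.67 CPM) in MHC-II high and 29 reads (0.571 CPM) in MHC-II low mTEC, a ratio of 8.18 (5.64 to 12.3). Prss2 was expressed at 11.8 CPM in MHC-II high and 10.8 CPM in MHC-II low mTEC, a ratio of 1.09 (0.992 to 1.204). Prss3 had 1.48 CPM in MHC-II high and 0.670 CPM in MHC-II low mTEC, a ratio of 2.21 (1.53 to 3.27) that was not called. Prss1 and Prss3 passed the minimum through the MHC-II high library alone. The trypsins are a multigene family, and 21.8% of the 100-base windows of Prss1 and 45.0% of those of Prss3 also occur in another trypsin gene, so their reads may be split between copies. Of 13 pancreatic proteases outside the group, 8 passed the minimum, with a median log2 ratio of 1.82. Beside 14.5% of all genes, 4 of these 8 were higher. They included chymotrypsinogen Ctrb1 at 30.02 CPM in MHC-II high and 3.43 CPM in MHC-II low mTEC, the trypsin Try5 at 2.71 CPM in MHC-II high and 0.394 CPM in MHC-II low mTEC, and the elastase Cela3b at 2.62 CPM in MHC-II high and 0.374 CPM in MHC-II low mTEC.

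The other Prss genes moved in both directions. Of 33, 15 passed the minimum, with a median log2 ratio of 0.17. Of these 15, 5 were higher and 4 were lower in MHC-II high mTEC, beside 14.5% and 10.9% of all genes. Over all 33 without a minimum, 6 were higher and 9 were lower, beside 12.4% and 16.7% of all genes with reads. The median of the 33 was -0.94, opposite in sign to that of the 15. Prss29, a protease of uterine glands known from embryo implantation, had 3339 reads (21.8 CPM) in MHC-II high and 62 reads (1.22 CPM) in MHC-II low mTEC, a ratio of 17.9 (13.9 to 23.4). Prss28, the other implantation protease, had 1.83 CPM in MHC-II high and 2.21 CPM in MHC-II low mTEC and was not called. Prss34, a protease of mast cells and basophils, had 13.7 CPM in MHC-II high and 1.99 CPM in MHC-II low mTEC, a ratio of 6.87 (5.63 to 8.48), and as for the granule members the part of mast cells in it was not tested. Prss37, needed for sperm function, had 3.19 CPM in MHC-II high and 0.729 CPM in MHC-II low mTEC, a ratio of 4.38. Prss37 passed the minimum through the MHC-II high library alone. Prss35 had 14.3 CPM in MHC-II high and 4.35 CPM in MHC-II low mTEC, a ratio of 3.29, and Prss30, the distal intestinal serine protease, had 13.6 CPM in MHC-II high and 5.02 CPM in MHC-II low mTEC, a ratio of 2.70.

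Prss23 was the member furthest in the other direction among those past the minimum. It had 370 reads (2.42 CPM) in MHC-II high and 1097 reads (21.6 CPM) in MHC-II low mTEC, and was 8.93-fold lower in MHC-II high mTEC. Prss12 (neurotrypsin), a protease of nerve synapses, had 44 reads (0.288 CPM) in MHC-II high and 88 reads (1.73 CPM) in MHC-II low mTEC, and was 6.02-fold lower. It passed the minimum through the MHC-II low library alone and was under it with unscaled read sums, with the library totals that underlie the RPKM columns and with TMM over all genes. Prss33 had 2.56 CPM in MHC-II high and 7.21 CPM in MHC-II low mTEC and was 2.81-fold lower, a call that ended with unscaled read sums (log2 ratio -1.20). Prss53 had 14.5 CPM in MHC-II high and 40.1 CPM in MHC-II low mTEC and was 2.76-fold lower, a call that ended with the library totals that underlie the RPKM columns (log2 ratio -0.46), as did that of Prss33. Like these 4 genes, the summed markers of immature and basal mTEC and of tuft-like cells were lower in MHC-II high mTEC. So were those of endothelial, erythroid, and fibroblast and mural cells, though Rgs5 and Pdgfrb of the last list had more CPM in MHC-II high mTEC. The part of any of those cells in the ratios of the 4 genes was not tested. For Prss53, 78.4% of 100-base windows also lie in Gm21974 or Zfp646, and for Prss23, 24.5% lie in an antisense gene, so reads of these genes cannot be told apart without strand or by position.

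Prss8 (prostasin), which activates the epithelial sodium channel, had the most reads of the other Prss genes. It had 47.3 CPM in MHC-II high and 34.4 CPM in MHC-II low mTEC, a ratio of 1.38 (1.31 to 1.45), and was not called. Prss22 had 13.8 CPM in MHC-II high and 14.5 CPM in MHC-II low mTEC, a ratio of 0.951 (0.874 to 1.04), and Prss27 had 12.1 CPM in MHC-II high and 14.2 CPM in MHC-II low mTEC, a ratio of 0.855. These 2 ratios were within 2-fold, and both turned above 1 with unscaled read sums. Prss32 had 6.58 CPM in MHC-II high and 3.39 CPM in MHC-II low mTEC, a ratio of 1.94, and Prss57 had 5.06 CPM in MHC-II high and 4.51 CPM in MHC-II low mTEC, a ratio of 1.12.

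Of the 87 members, 21 were under the minimum, with 6 to 198 reads in the MHC-II high and 8 to 84 reads in the MHC-II low library. They were 18 other Prss genes and 3 membrane-spanning genes. Prss56, a protease of the eye, had 193 reads in MHC-II high and 19 reads in MHC-II low mTEC and was the 1 of these that was higher, with a ratio of 3.37 (2.10 to 5.73). Prss39, Prss40, Prss43, Prss48, Prss54 and Tmprss12 were lower. Prss40, a testis protease, had 19 reads in the MHC-II high and 84 in the MHC-II low library and was 13.3-fold lower, and Prss48 had 9 reads in MHC-II high and 42 reads in MHC-II low mTEC and was 14.0-fold lower. Tmprss12 had 6 reads in MHC-II high and 16 reads in MHC-II low mTEC. Several of these genes, such as Prss39, Prss40 and Prss43, are best known from the testis, and their levels stayed at or under 1.65 CPM in both libraries. Reads over all transcript lines summed to 191391401 in the MHC-II high library, where the total that underlies the RPKM column was 213854095. In the MHC-II low library they summed to 74029717, where that total was 142330178. Whether reads outside the listed transcripts have a part in such low counts was not tested.

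Membrane-spanning proteases had 7 of 17 members past the minimum higher in MHC-II high mTEC and none lower, beside 14.5% and 10.9% of all genes. The median log2 ratio of the 17 was 0.84, while over all 20 it was 0.19. Of the 7, Tmprss11a and Tmprss15 passed the minimum through the MHC-II high library alone. Tmprss15 (enteropeptidase), the gut enzyme that activates trypsinogen, had 988 reads (6.46 CPM) in MHC-II high and 20 reads (0.394 CPM) in MHC-II low mTEC, a ratio of 16.4 (10.6 to 27.0). Tmprss2, which cleaves surface proteins of respiratory viruses, was the called member with the most reads. It had 17644 reads (115 CPM) in MHC-II high and 1298 reads (25.6 CPM) in MHC-II low mTEC, a ratio of 4.52 (4.27 to 4.78). Tmprss6, the liver protease that restrains hepcidin, had 9.79 CPM in MHC-II high and 2.97 CPM in MHC-II low mTEC, a ratio of 3.29. Tmprss9 had 4.19 CPM in MHC-II high and 1.54 CPM in MHC-II low mTEC, a ratio of 2.73.

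Of the 7 Tmprss11 genes, proteases of airway and other lining epithelia, 5 passed the minimum and 3 were higher, beside 14.5% of all genes. Tmprss11d, the airway trypsin-like protease, had 13.5 CPM in MHC-II high and 1.83 CPM in MHC-II low mTEC, a ratio of 7.38 (5.99 to 9.18). Tmprss11a had 3.36 CPM in MHC-II high and 0.571 CPM in MHC-II low mTEC, a ratio of 5.88, and Tmprss11b had 4.17 CPM in MHC-II high and 1.202 CPM in MHC-II low mTEC, a ratio of 3.47. Tmprss11e and Tmprss11g had ratios of 1.03 and 0.921, the second of which turned above 1 with unscaled read sums.

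St14 (matriptase), which activates prostasin at epithelial surfaces, had 209 CPM in MHC-II high and 222 CPM in MHC-II low mTEC, a ratio of 0.942 (0.922 to 0.962) that turned above 1 under 3 of the other scalings. Tmprss4 had 23855 reads (156 CPM) in MHC-II high and 4412 reads (86.9 CPM) in MHC-II low mTEC, a ratio of 1.80 (1.74 to 1.86), under the threshold with its whole interval, though with unscaled read sums it was called higher. Tmprss13 had 20.9 CPM in MHC-II high and 23.9 CPM in MHC-II low mTEC, a ratio of 0.871 that turned above 1 with unscaled read sums. The membrane-spanning members with the most reads, St14 and Tmprss4, were thus within 2-fold between the fractions. Hpn (hepsin) had 11.97 CPM in MHC-II high and 10.9 CPM in MHC-II low mTEC and Corin, which activates atrial natriuretic peptide, had 2.63 CPM in MHC-II high and 2.21 CPM in MHC-II low mTEC, neither called. Tmprss7 and Tmprss5 were not called either, with ratios of 2.32 and 0.410.

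All 5 granule members were higher in MHC-II high mTEC, beside 14.5% of all genes. Together the 5 had 5885 reads in the MHC-II high and 337 in the MHC-II low library, a ratio of 5.80 (5.20 to 6.49). Of these, Mcpt1 and Gzma passed the minimum through the MHC-II high library alone. Mcpt1, a protease of mucosal mast cells, had 9.53 CPM in MHC-II high and 0.985 CPM in MHC-II low mTEC, a ratio of 9.68 (7.30 to 13.1). Mcpt4 and Cma1, proteases of connective tissue mast cells, had 10.4 and 6.47 CPM in MHC-II high mTEC, against 2.34 and 1.26 CPM in MHC-II low mTEC, with ratios of 4.42 for Mcpt4 and 5.13 for Cma1. Among the granzymes of killer lymphocytes, Gzmb had 9.61 CPM in MHC-II high and 1.42 CPM in MHC-II low mTEC, a ratio of 6.78 (5.35 to 8.71). Gzma had 2.52 CPM in MHC-II high and 0.630 CPM in MHC-II low mTEC, a ratio of 3.997 (2.78 to 5.93). No granule member exceeded 2.34 CPM in MHC-II low mTEC. Of 15 granule proteases outside the group, 7 passed the minimum and 3 were higher, beside 14.5% of all genes. Mcpt2 had 8.96 CPM in MHC-II high and 0.689 CPM in MHC-II low mTEC. Gzmc had 3.98 CPM in MHC-II high and 0.315 CPM in MHC-II low mTEC. Tpsb2 had 8.15 CPM in MHC-II high and 1.89 CPM in MHC-II low mTEC.

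Markers of the cells that store these granules were set beside them. The 7 mast cell markers summed to 756 CPM in MHC-II high and 138 CPM in MHC-II low mTEC, 5 passed the minimum and 3 of these were higher, and none was at 0 reads. Most of that sum was Hdc, at 603 CPM in MHC-II high and 59.6 CPM in MHC-II low mTEC, and Kit, at 133 CPM in MHC-II high and 72.2 CPM in MHC-II low mTEC. Tpsb2, 1 of the 3 that were higher, is also in the list of granule proteases outside the group. The mast cell carboxypeptidase Cpa3 had 0.615 CPM in MHC-II high and 0.374 CPM in MHC-II low mTEC, and the IgE receptor chains Fcer1a and Ms4a2 had 3.78 and 1.61 CPM in MHC-II high mTEC, against 0.414 and 0.315 CPM in MHC-II low mTEC. The 8 markers of NK and cytotoxic T cells summed to 97.1 CPM in MHC-II high and 35.2 CPM in MHC-II low mTEC, of which Ccl5 made up 87.7 CPM in MHC-II high and 19.8 CPM in MHC-II low mTEC, 4 passed the minimum, 1 was higher and none was at 0 reads. Klrd1 had 60 reads (0.393 CPM) in MHC-II high and 2 reads (0.0394 CPM) in MHC-II low mTEC, a ratio of 9.97 (2.64 to 84.2), and was under the minimum. Perforin (Prf1) had 1.87 CPM in MHC-II high and 1.32 CPM in MHC-II low mTEC and Ncr1 0.0720 CPM in MHC-II high and 0.571 CPM in MHC-II low mTEC. Of the other blood cells, 4 of 7 dendritic cell and macrophage markers were higher, with a sum of 72.3 CPM in MHC-II high and 53.3 CPM in MHC-II low mTEC. Of the B cell and plasma cell markers 5 passed the minimum and 3 were higher, with a sum of 201 CPM in MHC-II high and 366 CPM in MHC-II low mTEC, and no marker of either list was at 0 reads. The part of any of these cells in the granule members' ratios was not tested.

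**Figure D5:**
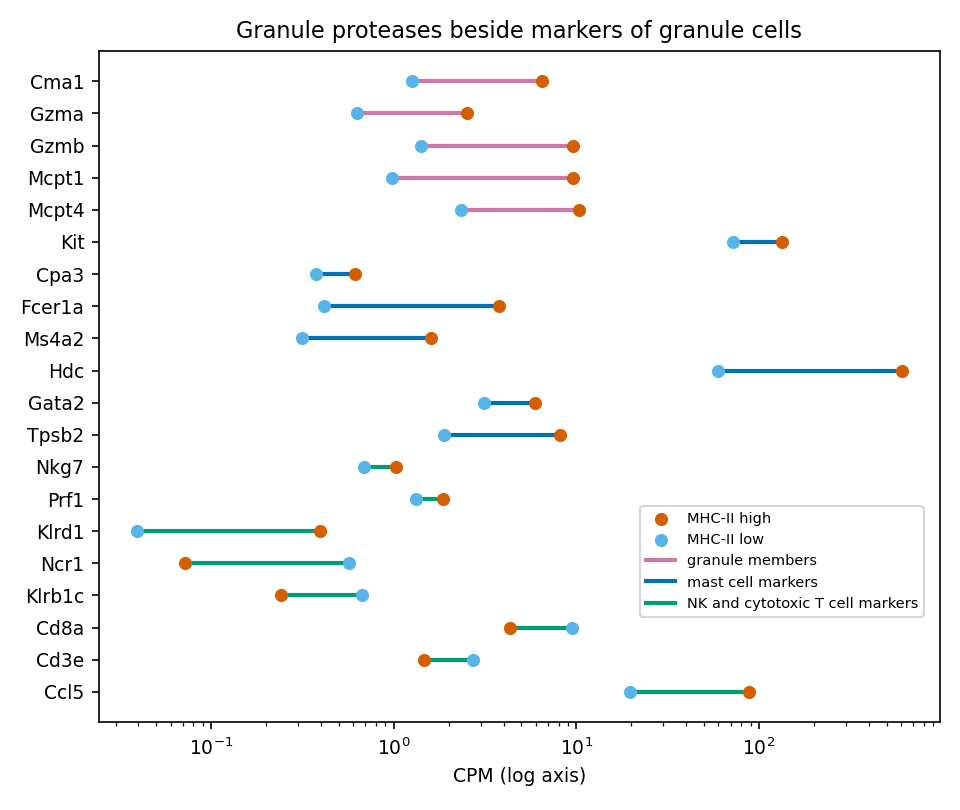
CPM (log axis) of the 5 granule members and of mast cell, NK and cytotoxic T cell markers in MHC-II high (orange) and MHC-II low (blue) mTEC, with lines that join both values of a gene and colours for the list. All 5 granule members and all 7 mast cell markers have more CPM in MHC-II high mTEC, as do Nkg7, Prf1, Klrd1 and Ccl5, while Cd8a, Cd3e, Klrb1c and Ncr1 have more in MHC-II low mTEC.

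Of 48 serine protease inhibitors, 39 passed the minimum, 10 were higher and 4 were lower in MHC-II high mTEC, and their median log2 ratio was -0.07, near that of all genes. Serpinb2, an inhibitor of plasminogen activators, had 557 CPM in MHC-II high and 156 CPM in MHC-II low mTEC, and Serpinb9, the inhibitor of granzyme B, had 347 CPM in MHC-II high and 133 CPM in MHC-II low mTEC. Serpinb9b, a relative of Serpinb9, had 10.7 CPM in MHC-II high and 0.453 CPM in MHC-II low mTEC, a ratio of 23.6. Serpina3n had 12.3 CPM in MHC-II high and 109 CPM in MHC-II low mTEC and was 8.88-fold lower. These counts stand beside 14.5% higher and 10.9% lower over all genes, and the total over the list was 3841 CPM in MHC-II high and 3967 CPM in MHC-II low mTEC.

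Protease-activated receptors are cut by these enzymes at the cell surface. F2r, the thrombin receptor, had 19.4 CPM in MHC-II high and 45.7 CPM in MHC-II low mTEC and was 2.35-fold lower. F2rl1, the receptor that trypsin and tryptase cut, had 155 CPM in MHC-II high and 99.1 CPM in MHC-II low mTEC and was not called, and the other 2 receptors did not pass the minimum. All 14 listed substrates and kinin receptors passed the minimum, and 4 were higher and none was lower. These counts stand beside 14.5% higher and 10.9% lower over all genes, and the median log2 ratio of the 14 was 0.79. Bdkrb1, the kinin receptor, had 74.6 CPM in MHC-II high and 18.4 CPM in MHC-II low mTEC, the kininogen gene Kng1 had 8.06 CPM in MHC-II high and 1.58 CPM in MHC-II low mTEC, and Nppa, which Corin processes, had 11.8 CPM in MHC-II high and 1.12 CPM in MHC-II low mTEC, a ratio of 10.5.

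Of 18 serine proteases of clotting, fibrinolysis and complement, 14 passed the minimum, 2 were higher and 4 were lower, beside 14.5% and 10.9% of all genes, with a median log2 ratio of -0.34. C1ra and C1s1, the proteases of the first complement component, had 7.197 and 27.1 CPM in MHC-II high mTEC, against 147 and 360 CPM in MHC-II low mTEC, and were 20.4-fold and 13.3-fold lower. No test of the difference between lists was made.

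Copies and overlaps limit what single genes can show. Windows of 100 bases that also occur in another gene made up 0% to 6.08% of each tissue kallikrein transcript, with a median of 1.43%. Most of each transcript thus differs from its near copies by at least 1 base at that length. Only exact matches were counted, so reads placed with mismatches could still be shared between copies. For Klk1b26 and Klk1b5 the transcripts examined had 1386 and 1391 bases, against 873 and 861 bases for those with the read counts. Beside Klk1b26, 8 members shared both of their low read counts with unrelated genes. Windows shared with an overlapping gene made up 40.8% of Prss57, 23.1% of Klk8, 22.2% of Prss32 and 11.99% of Tmprss4, and without strand the reads of such genes cannot be told apart. For Klk14, 16.6% of windows occur in an overlapping gene or in genes elsewhere. Over all members, 26 shared at least 1 such window with another gene and 14 had an exon that overlaps another gene.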

How the data were processed

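Per the file headers, the deposited tables gave read counts, lengths and RPKM values by RefSeq transcript. The submitters' processing notes name CASAVA, Bowtie 1.0.0, bedtools and the build mm9; their settings, the annotation and the counting of mates are not given in the sources used here. RPKM values equalled counts over length and 1 read total per library within 1e-06. Copies of an accession were summed, and each gene was its transcript with the most reads. Symbols came from RefSeq GRCm38.p6 and GENCODE vM21. CPM used TMM totals (edgeR 4.0.16) of 152834157 (MHC-II high) and 50769794 (MHC-II low), which make 3 reads 0.0196 CPM in MHC-II high and 0.0591 CPM in MHC-II low mTEC. Exact Clopper-Pearson intervals came from SciPy 1.17.1. PCR reads carry no molecular identifiers, so intervals cover counting error only. The library kit does not keep strand. Members, roles and lists were chosen with earlier results of these data known. Named were every called member, the 10 uncalled with the most reads, the 10 highest levels per library and up to 4 called genes per list; other members and marker genes are named to account for the group, chosen after their values were seen. The pseudogene Klk1b7-ps was left out by its symbol; it had 155 reads in the MHC-II high and 8 in the MHC-II low library.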

Additional observations from a re-analysis of the deposited data

How the results depend on the processing

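No paired analysis was possible because each fraction had 1 library. The 32 higher and 4 lower members were the counts also with DESeq2 size factors, the longest transcript, the first line of each accession, and accessions of 1 table read as 0. Scaling shifted all genes: the median log2 ratio of all genes and of the members was 0.28 and 1.55 with unscaled read sums, 0.997 and 2.33 with the library totals that underlie the RPKM columns, and 0.11 and 1.38 with TMM over all genes, an alternative chosen after seeing the data. Of all called genes, 72.9%, 93.9% and 64.0% were then higher. Members higher and lower numbered 38 and 2 with unscaled sums, 44 and 1 with the RPKM totals, and 35 and 3 with TMM over all genes. Of all genes, 19.8% were higher and 7.35% lower with unscaled sums, and 45.2% and 2.94% with the RPKM totals. With TMM over all genes, 16.4% were higher and 9.25% lower. Ratios turned above 1 with unscaled sums for Klk1 (log2 0.0226), Klk8 (0.24), Prss22 (0.21), Prss27 (0.0611), Prss28 (0.0137), St14 (0.20), Tmprss11g (0.17), Tmprss13 (0.0882) and Tmprss3 (0.0358). With the RPKM totals they did so for Klk1 (0.74), Klk13 (0.51), Klk8 (0.96), Prss22 (0.93), Prss27 (0.78), Prss28 (0.73), St14 (0.92) and Tmprss13 (0.80), and with TMM over all genes for Klk8 (0.0712), Prss22 (0.0458) and St14 (0.0313). Klk12, Klk1b27, Klk1b4, Prss32, Tmprss4 and Tmprss7 became higher with unscaled sums. By role, other Prss genes that were lower numbered 2 with unscaled sums and 1 with the RPKM totals, where 9 kallikrein-related genes were higher. Without a minimum 10 members were lower, 9 of them other Prss and 1 membrane-spanning. With a mean of at least 5 CPM, 40 members were left, of which 21 were higher (3 granule, 3 membrane-spanning and 0 secreted trypsins among them) and 2 were lower, both other Prss. Of all genes past that minimum, 12.3% were higher and 10.6% lower. At 1.5-fold, 39 were higher and 5 lower, with 2 secreted trypsins higher and 1 membrane-spanning gene lower, beside 22.8% and 20.4% of all genes. At 3-fold, 22 were higher and 2 lower, beside 8.01% and 5.24% of all genes. Among these, 4 membrane-spanning and 3 other Prss genes were higher and 2 other Prss genes were lower. With members that share both read counts with another gene left out, 31 were higher and 4 lower. Among members past the minimum the widest interval was that of Tmprss15, which had 20 reads in MHC-II low mTEC.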
